A study of Homo sapiens with 12 samples.

Results

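A set of 8 genes, out of 28256 gene symbols in the deposited counts, was described in HepG2, a hepatoma cell line of human origin. They were MATN3, PGC, LGI4, PTGDR2, SLC26A3, FXYD3, EMP2 and GGT5, each of which is best known from a tissue other than liver. They were chosen by their higher counts with dexamethasone (Dex) in these same libraries. Their Dex changes are therefore a description and carry no test. Each symbol was represented by 1 RefSeq transcript, that with the most counts. Per the labels, charcoal-stripped serum preceded treatment for 24 h, and treatment itself lasted 24 h. The 4 groups of 3 libraries each were Dex and KLA together (DexKLA), Dex at 50 nM, KLA at a labelled dose of 100 ng/µl, and vehicle (DMSO, 0.1%). The labels do not spell out KLA, and its dose unit could not be checked. DMSO is labelled for the vehicle group alone. The labels leave unsaid whether the replicates were separate cultures, so the p-values below measure the spread between these libraries only, which may be technical.

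Dex is a synthetic glucocorticoid. A glucocorticoid enters the cell, binds the glucocorticoid receptor, and the receptor moves into the nucleus and binds DNA at sites made of a repeated hexamer. Glucocorticoid response genes are known to differ widely between tissues. The products of the 8 genes fall into secreted proteins (MATN3, PGC, LGI4), a cell surface receptor (PTGDR2), an ion exchanger and an ion pump regulator (SLC26A3, FXYD3), and membrane proteins of other kinds (EMP2, GGT5).

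Library totals over gene symbols ran from 4514777 to 11484676 counts under DexKLA, 3642904 to 17782295 under Dex, 15998814 to 20933628 under KLA and 3317880 to 5277625 under DMSO. Every KLA library was deeper than every DMSO library, so depth and KLA cannot be told apart where KLA alone is set against DMSO. Every DexKLA library was shallower than every KLA library, so depth and Dex cannot be told apart in DexKLA versus KLA. The Dex and DMSO libraries overlapped in depth. The DMSO libraries also stood apart from the others on the first principal component of log2 counts scaled to library size (CPM), which held 27.9% of the variance, with DMSO replicate 1 farthest out at 39.6, against 15.6 and 16.9 for DMSO replicates 2 and 3 and at most 5.49 for any treated library. Liver markers were strongly expressed. The summed level of 8 of them (ALB, APOA1, APOB, TTR, TF, SERPINA1, HNF4A and FGB) was 92300 to 119600 CPM under DexKLA, 100200 to 105500 under Dex, 103000 to 108300 under KLA and 79980 to 94430 under DMSO. Expression is in CPM after TMM scaling of the libraries unless stated otherwise. In bulk RNA, fewer cells of a kind and less RNA per cell cannot be told apart. All 8 genes passed the filter on low counts that left 13166 genes for testing. Without strand information, reads of overlapping genes on opposite strands cannot be separated.

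The promoter table holds 6 of the 8 genes, and its entries for MATN3, PGC and FXYD3 are printed because they cover the highest level among the 8 and both motif matches found. The sequences are from RefSeq on GRCh38.p14, run 5′ to 3′ on the strand of the gene, and span 300 bases, of which the last 50 lie in the gene. MATN3 lies at chr2:20012619-20012918 (minus strand), PGC at chr6:41747348-41747647 (minus strand) and FXYD3 at chr19:35117750-35118049 (plus strand). Capitals mark motif matches.
MATN3 promoter: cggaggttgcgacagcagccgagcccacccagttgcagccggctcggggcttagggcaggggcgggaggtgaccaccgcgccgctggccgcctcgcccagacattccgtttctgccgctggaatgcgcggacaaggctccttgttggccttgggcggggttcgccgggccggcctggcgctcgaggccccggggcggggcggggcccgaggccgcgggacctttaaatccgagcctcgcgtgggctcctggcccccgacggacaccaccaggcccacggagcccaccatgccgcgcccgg
PGC promoter: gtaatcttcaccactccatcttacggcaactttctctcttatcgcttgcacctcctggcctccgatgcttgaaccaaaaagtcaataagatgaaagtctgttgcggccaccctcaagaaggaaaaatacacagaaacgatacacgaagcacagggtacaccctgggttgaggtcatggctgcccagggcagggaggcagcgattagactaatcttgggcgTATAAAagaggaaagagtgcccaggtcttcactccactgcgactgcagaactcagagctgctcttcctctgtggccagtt
FXYD3 promoter: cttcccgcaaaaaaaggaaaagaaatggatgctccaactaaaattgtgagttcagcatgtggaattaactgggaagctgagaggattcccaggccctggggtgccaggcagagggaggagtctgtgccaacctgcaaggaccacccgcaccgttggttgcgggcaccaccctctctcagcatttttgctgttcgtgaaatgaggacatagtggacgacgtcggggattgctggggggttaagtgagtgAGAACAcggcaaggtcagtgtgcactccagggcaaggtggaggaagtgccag
The start in the table was the 5′ start of the counted transcript for MATN3 and PGC, whereas for FXYD3 the counted transcript began 2177 bases upstream of it. Motifs were searched on both strands. The full palindrome of the glucocorticoid receptor, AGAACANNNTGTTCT, was in none of the 6 promoters and in 0.00286% of all 34943. The looser core GNACANNNTGTNC was in none of the 6 and in 0.389% of all. The hexamer TGTTCT, which is part of the palindrome, was in 1 of the 6 (FXYD3, printed as its complement AGAACA, from 2 bases before the start) and in 14.8% of all. TATAAA, the core of the TATA box, was in 1 of the 6 (PGC, 30 bases before the start) and in 11.6% of all. The GC content was 75.0% for MATN3, 50.7% for PGC and 54.7% for FXYD3, against a median of 58.7% over all promoters. PTGDR2 and GGT5 had no entry.

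MATN3 encodes matrilin-3, an adaptor protein of the cartilage matrix. The counted transcript lies on chromosome 2, 19992052 to 20012668, minus strand, and overlaps the antisense RNA LOC101928222, which had at most 12 counts per library. MATN3 was the most abundant of the 8 genes, with 316, 376 and 396 CPM under DexKLA, 367, 333 and 352 under Dex, 160, 169 and 166 under KLA, and 124, 149 and 149 under DMSO. The 6 libraries with Dex thus all stood above the 6 without it, and those with Dex alone and DexKLA overlapped. The means were 363 ± 41.3 CPM under DexKLA, 351 ± 17.4 under Dex, 165 ± 4.76 under KLA and 141 ± 14.5 under DMSO (SD, n = 3 each). Divided by transcript length, the DMSO level of 55.3 CPM per kb was higher than that of 90.2% of tested genes, and the Dex level of 138 CPM per kb was higher than that of 96%.

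PGC encodes progastricsin, the precursor of a stomach protease also called pepsinogen C (chromosome 6, 41736711 to 41747397, minus strand). Its levels were 140, 115 and 108 CPM under DexKLA, 126, 137 and 132 under Dex, 53.2, 55.6 and 35.3 under KLA, and 69.8, 45.9 and 51.7 under DMSO. The lowest library with Dex was thus above the highest without it, and the KLA and DMSO libraries overlapped. A second, shorter RefSeq transcript of PGC showed ratios close to those of the counted one, 2.71 for DexKLA over KLA and 2.44 for Dex over DMSO, against 2.52 and 2.36.

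LGI4 encodes a protein that Schwann cells secrete and that binds the receptor ADAM22 during myelination of peripheral nerve (chromosome 19, 35124513 to 35135059, minus strand). It was among the less abundant of the 8, with 6.28, 7.43 and 4.07 CPM under DexKLA, 6.10, 6.71 and 7.48 under Dex, 3.46, 2.42 and 1.67 under KLA, and 1.13, 2.15 and 2.18 under DMSO. Groups with Dex did not overlap those without it, although the gap between DexKLA and KLA was narrow. DMSO counts were 4 to 12 per library, so the DMSO level is imprecise.

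PTGDR2, also called CRTH2, is a receptor for prostaglandin D2 found on type 2 helper T cells, eosinophils and basophils (chromosome 11, 60850933 to 60855950, minus strand). It had 23.3, 28.8 and 24.9 CPM under DexKLA, 30.5, 29.1 and 23.3 under Dex, 10.6, 10.9 and 12.8 under KLA, and 7.88, 12.2 and 9.17 under DMSO. The levels with Dex alone and DexKLA overlapped, as did those with KLA and DMSO, and every library with Dex was above every library without it. The end of the gene overlaps CCDC86, a gene on the opposite strand. CCDC86 averaged 58 CPM under DexKLA, 59.7 under Dex, 43.5 under KLA and 53.9 under DMSO. Its mean Dex effect was 0.29 ± 0.08 on the log2 scale and did not pass the threshold (adjusted p = 0.0708, edgeR quasi-likelihood test).

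SLC26A3 encodes a chloride and bicarbonate exchanger of the apical membrane of colon cells, the gene mutated in congenital chloride diarrhoea (chromosome 7, 107765467 to 107803233, minus strand). Its levels were 32.4, 44.6 and 26.3 CPM under DexKLA, 32.7, 30.9 and 28.8 under Dex, 20.8, 16.6 and 21.3 under KLA, and 7.88, 10.4 and 12.7 under DMSO. Its KLA libraries, like those of MATN3, lay between those with Dex and those with DMSO, with no overlap on either side. DexKLA replicate 2 was the highest of all.

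FXYD3 encodes a small membrane protein that regulates the Na,K-ATPase and is known from stomach, colon and several carcinomas (chromosome 19, 35115823 to 35124324, plus strand). It had 2.97, 6.5 and 2.49 CPM under DexKLA, 2.77, 4.93 and 3.96 under Dex, 1.47, 1.26 and 1.00 under KLA, and 1.41, 1.26 and 0.873 under DMSO. The groups with and without Dex did not overlap. DexKLA replicate 2 was the highest library, and DMSO counts were 4 to 7 per library. All 8 RefSeq transcripts of FXYD3 had higher levels with Dex, with ratios between 2.69 and 3.46 for Dex over DMSO and between 3.02 and 3.28 for DexKLA over KLA. These transcripts share exons and are not independent counts. A protein-coding readthrough gene, AC020907.6, overlaps FXYD3 on the same strand in GENCODE 29.

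EMP2 encodes a membrane protein of the PMP22 family (chromosome 16, 10528422 to 10580598, minus strand). It was present at 143, 159 and 150 CPM under DexKLA, 172, 184 and 194 under Dex, 97.2, 95.6 and 114 under KLA, and 94.3, 109 and 107 under DMSO. It was the only one of the 8 whose DexKLA libraries were all below its Dex libraries, an order that 6.31% of tested genes also had. The means were 151 ± 7.71 CPM under DexKLA, 183 ± 11.2 under Dex, 102 ± 10.3 under KLA and 103 ± 7.88 under DMSO (SD, n = 3 each).

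GGT5 encodes an extracellular gamma-glutamyltransferase that converts leukotriene C4 to leukotriene D4 (chromosome 22, 24219654 to 24245142, minus strand). Per length it was the least abundant of the 8 in each group, with 1.23 CPM per kb under DexKLA, 1.02 under Dex, 0.696 under KLA and 0.306 under DMSO. By library it had 2.40, 3.71 and 3.07 CPM under DexKLA, 2.22, 3.61 and 1.76 under Dex, 1.47, 1.64 and 2.07 under KLA, and 1.13, 0.718 and 0.437 under DMSO. Dex libraries overlapped DexKLA libraries, all KLA libraries were above all DMSO libraries, and Dex replicate 3 was below KLA replicate 3. With 4, 4 and 2 counts in the DMSO libraries, its level there was near the floor of 3 counts. Summed over libraries, counts per total were 3.95 times as high for Dex as for DMSO, with an exact 95% binomial interval of 2.04 to 8.55 that covers counting error only.

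**Figure D1:**
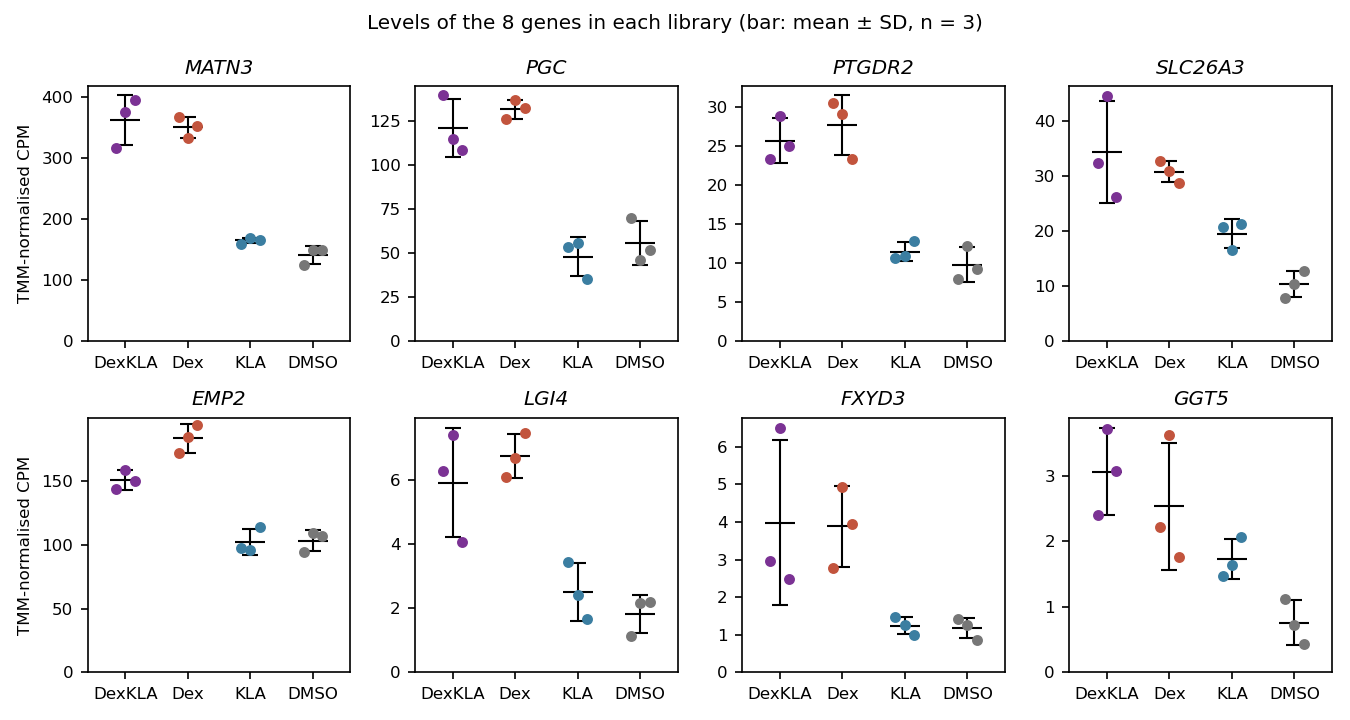
Each panel plots 1 gene in TMM-normalised CPM on a linear axis from 0, with a point for each library, a horizontal bar at the mean and whiskers of 1 SD (n = 3). Libraries with Dex (DexKLA and Dex) lie above those of KLA and DMSO in each pair compared, and MATN3, SLC26A3 and GGT5 have all KLA points above their DMSO points.

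The change with Dex was compared between cells with and without KLA, 2 comparisons that share no library. With Dex, all 3 libraries of DexKLA stood above all 3 of KLA for 8 of 8 genes, an order found in 8.1% of the 13166 tested genes, and all 3 of Dex stood above all 3 of DMSO for 8 of 8, an order found in 14.5%. Both orders together were found in 0.866% of tested genes. Since the genes were picked for this rise, these counts say nothing further. The fitted log2 change of DexKLA versus KLA ran from 0.56 ± 0.10 (EMP2) to 1.51 ± 0.33 (FXYD3), with a median of 1.14 against 0.003 over all tested genes. The change of Dex versus DMSO ran from 0.83 ± 0.11 (EMP2) to 1.96 ± 0.45 (GGT5), with a median of 1.52 against −0.011.

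The 8 genes did not share 1 size of change. For MATN3 the log2 change was 1.14 ± 0.11 in DexKLA versus KLA and 1.31 ± 0.11 in Dex versus DMSO, and for PGC 1.33 ± 0.15 in DexKLA versus KLA and 1.25 ± 0.16 in Dex versus DMSO. These 2 abundant genes had like values in both comparisons. For PTGDR2 it was 1.15 ± 0.15 in DexKLA versus KLA and 1.48 ± 0.18 in Dex versus DMSO, and for LGI4 1.17 ± 0.26 in DexKLA versus KLA and 1.84 ± 0.35 in Dex versus DMSO. For SLC26A3 it was 0.78 ± 0.16 in DexKLA versus KLA and 1.56 ± 0.20 in Dex versus DMSO. For GGT5 it was 0.78 ± 0.28 in DexKLA versus KLA and for FXYD3 1.84 ± 0.43 in Dex versus DMSO. Averaged over cells with and without KLA, the Dex change was lowest for EMP2 (0.69 ± 0.07) and highest for FXYD3 (1.67 ± 0.27).

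The values were also computed without single libraries that stood apart in depth or on the first principal component. Without the deep Dex replicate 2, which leaves Dex and DMSO libraries of like depth, the change of Dex versus DMSO ran from 0.82 to 1.85 over the 8 genes. Without DexKLA replicate 2, the shallowest of its group, DexKLA versus KLA ran from 0.52 to 1.37, with both remaining DexKLA libraries still shallower than every KLA library. Without DMSO replicate 1, the farthest out on the first component, Dex versus DMSO ran from 0.77 to 2.26. GGT5 was the gene that moved most with 1 library, to 1.41 for Dex versus DMSO without Dex replicate 2.

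**Figure D2:**
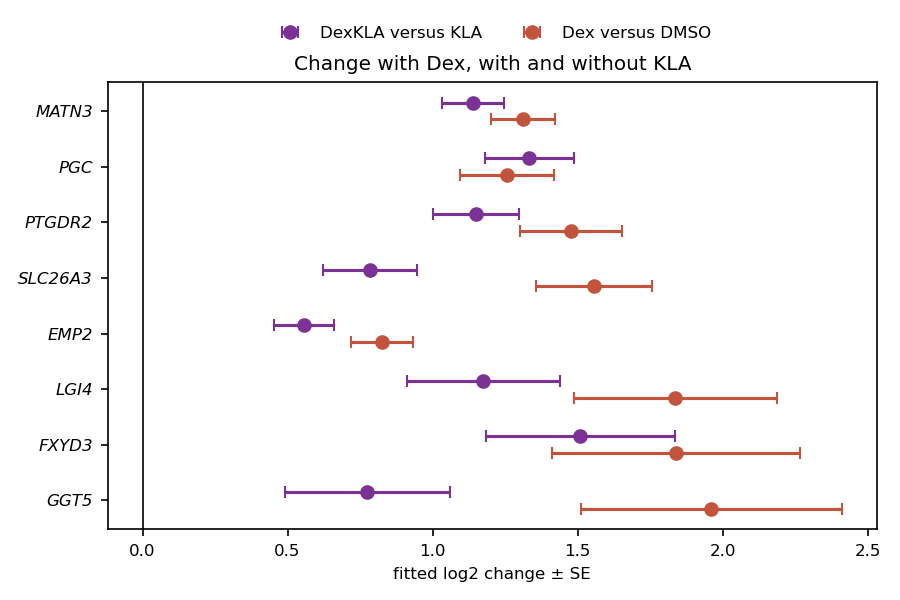
Points are fitted log2 changes for DexKLA versus KLA (purple) and Dex versus DMSO (red), with whiskers of 1 standard error, for each of the 8 genes. All points are right of 0, EMP2 has the smallest changes (0.56 and 0.83), and SLC26A3 and GGT5 show the widest gaps between both comparisons.

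The effect of KLA was asked next. Its mean over cells with and without Dex is a contrast other than those by which the genes were chosen. Its estimate is free of that choice only where the 4 group means have equal errors, which does not hold for genes with few DMSO counts such as GGT5. In the quasi-likelihood test of edgeR, with p-values adjusted over all tested genes by the Benjamini-Hochberg method, 0 of the 8 passed an adjusted p of 0.05, as did 0 of 13166 genes (0% of those tested, with 2532 at an unadjusted p under 0.05). DESeq2's test called 618 genes. It gave an adjusted p for 3 of the 8, none of which was called, and none for the other 5, SLC26A3 and GGT5 among them. limma voom called 0 genes. SLC26A3 came closest, at 0.51 ± 0.13 on the log2 scale (95% interval 0.22 to 0.81, adjusted p = 0.082, higher in 3 of 3 KLA libraries than in any DMSO library). This mean joins 0.90 ± 0.20 for KLA versus DMSO with 0.13 ± 0.17 for DexKLA versus Dex, whose libraries overlapped. Without DexKLA replicate 3 the mean KLA effect of SLC26A3 was 0.60 and passed (adjusted p = 0.0104, edgeR quasi-likelihood test), and it also passed with no filter (adjusted p = 0.00185). GGT5 followed at 0.64 ± 0.28 (adjusted p = 0.215). The other 6 lay between −0.17 ± 0.11 (PGC, 95% interval −0.42 to 0.09) and 0.14 ± 0.08 (MATN3, −0.04 to 0.31). Set against DMSO alone, KLA libraries stood wholly above DMSO libraries for 3 of 8 genes (MATN3, SLC26A3 and GGT5), an order found in 17.9% of tested genes, with fitted changes of 0.22 ± 0.11, 0.90 ± 0.20 and 1.23 ± 0.46. That comparison uses the DMSO libraries by which the genes were picked, so no test is given.

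Whether the Dex change differed with KLA was asked with the interaction of both, DexKLA versus KLA minus Dex versus DMSO. Its estimate is not independent of the choice of genes. It shares each Dex comparison, and it is free of the mean Dex effect only where both comparisons have equal errors. The standard error was 0.28 in DexKLA versus KLA and 0.45 in Dex versus DMSO for GGT5, and 0.26 in DexKLA versus KLA and 0.35 in Dex versus DMSO for LGI4, so a choice by a high Dex change favours a negative interaction there. The interaction was negative for 7 of 8 genes, with a median of −0.33 against 0.016 over all tested genes, a count that is given as a description only. In edgeR's quasi-likelihood test 0 of 8 passed the threshold, against 5 of 13166 (0.038%), with 2922 genes at an unadjusted p under 0.05. DESeq2's test called 705 genes, and 0 of the 5 among the 8 for which it gave an adjusted p. limma voom called 0 genes. The SLC26A3 difference was −0.77 ± 0.26 (95% interval −1.37 to −0.18, adjusted p = 0.0928). For GGT5 it was −1.19 ± 0.55 (−2.46 to 0.09, adjusted p = 0.211). For PGC it was 0.08 ± 0.22 (−0.43 to 0.59), and for MATN3 −0.17 ± 0.15 (−0.52 to 0.18). The intervals were wide for LGI4 (−1.71 to 0.38) and FXYD3 (−1.64 to 0.97), which had few counts.

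**Figure D3:**
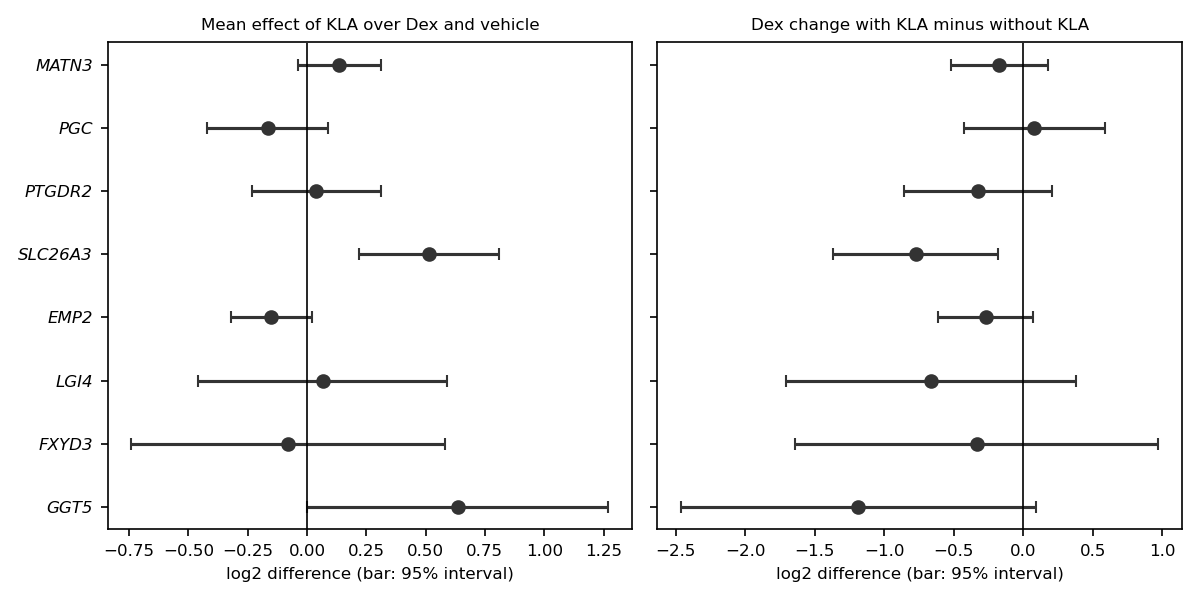
The left panel plots the mean log2 effect of KLA over cells with and without Dex, and the right panel the Dex change with KLA minus that without it, each with its 95% interval, for the 8 genes. The SLC26A3 intervals (0.22 to 0.81 and −1.37 to −0.18) do not cross 0 although its adjusted p-values of 0.082 and 0.0928 missed the threshold, and the intervals of LGI4, FXYD3 and GGT5 are the widest.

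The relatives and partners of each gene were examined for the same Dex change. Of 92 family and partner genes, 35 passed the filter and were tested for the Dex effect averaged over KLA. In the edgeR quasi-likelihood test, adjusted as above, 2 rose (FXYD1 and ANPEP) and 0 fell. Of all tested genes, 1.51% were called, 0.873% higher and 0.638% lower. The median log2 change of the 35 was −0.018, against −0.002 for all genes. FXYD1, phospholemman, which regulates the Na,K-ATPase of heart and muscle, rose by 1.11 ± 0.16 (adjusted p = 0.000157). ANPEP, an aminopeptidase, rose by 0.38 ± 0.08 (adjusted p = 0.0108). ANPEP was no longer called with library size as the only scaling, nor when Dex replicate 3 or DMSO replicate 3 was left out (adjusted p up to 0.0527). None of the 35 was called for the mean KLA effect or the interaction.

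For the matrix protein MATN3, 3 of 9 related genes were tested and none was called. They were the matrix partners COL9A3, COL9A2 and COL2A1, all of which were expressed. COL9A3 averaged 84.5 CPM under DexKLA, 93.7 under Dex, 91.5 under KLA and 92.6 under DMSO (mean Dex effect −0.05 ± 0.09). Group means ran from 30.7 (Dex) to 33.5 CPM (DMSO) for COL9A2 and from 7.91 (DexKLA) to 10.9 CPM (Dex) for COL2A1. Their mean Dex effects were −0.11 ± 0.09 and 0.007 ± 0.16. The other matrilins were near or at the floor: MATN2 had 0 to 8 counts per library and MATN4 0 or 1. For PGC, 2 of 9 aspartic proteases were tested. The stomach pepsinogens PGA3 and PGA4 had 0 counts in every library and PGA5 at most 1, while the lysosomal protease CTSD was abundant, at 398 CPM under DexKLA, 445 under Dex, 425 under KLA and 420 under DMSO (mean Dex effect −0.002 ± 0.07). PGC was the only gastric pepsinogen with more than 1 count in a library. How reads shared between similar genes were counted is not given in the sources used here, so these low counts may not reflect expression. A count of 0 in a library allows up to 0.143 CPM in the deepest library and 0.904 CPM in the shallowest (3 counts, counting error only).

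For the receptor PTGDR2, 1 of 14 genes of prostaglandin D2 and its relatives was tested. The genes that make the ligand were at the floor: PTGS2 and HPGDS had 0 counts in every library, PTGS1 at most 1 and PTGDS at most 2. The other prostaglandin D2 receptor, PTGDR, also had 0 counts. AKR1C3, which can turn prostaglandin D2 into a prostaglandin F, was abundant (477 CPM under DexKLA, 462 under Dex, 569 under KLA and 380 under DMSO) and its mean Dex effect was 0.01 ± 0.09 (adjusted p = 0.989).

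For the ion genes, 7 of 14 relatives and partners of SLC26A3 were tested and none was called. The exchanger SLC26A6, which also carries chloride and bicarbonate, averaged 89.9 CPM under DexKLA, 90.6 under Dex, 74.6 under KLA and 75.2 under DMSO (mean Dex effect 0.27 ± 0.08, adjusted p = 0.0935). SLC26A1, SLC26A2 and SLC26A11, carriers mainly of sulfate, had mean Dex effects of −0.14, 0.001 and −0.09 on the log2 scale. SLC26A4, 47659 bases from SLC26A3, had at most 3 counts, and the chloride channel CFTR had 0. Of the FXYD proteins and Na,K-ATPase subunits, 5 of 13 were tested, and FXYD1 was the only one called. The mean Dex effect was −0.22 ± 0.07 for the subunit ATP1B1 (adjusted p = 0.223) and −0.06 ± 0.11 for FXYD2, the kidney member. FXYD5 had at most 8 counts.

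For LGI4, 2 of 6 genes of its family and receptors were tested. ADAM22, its receptor, stood at 3.26 CPM under DexKLA, 2.38 under Dex, 3.01 under KLA and 4.15 under DMSO (mean Dex effect −0.38 ± 0.20, adjusted p = 0.634), and LGI1 had at most 1 count. For EMP2, 4 of 7 were tested and none was called. The mean Dex effect was −0.07 ± 0.21 for its relative EMP3 and −0.21 ± 0.25 for PMP22, and EMP1 had at most 6 counts. For GGT5, 11 of 20 were tested. The mean Dex effect was −0.26 ± 0.08 for GGT1, which breaks down glutathione (adjusted p = 0.167), and 0.05 ± 0.09 for GGT7. LTC4S, which makes the leukotriene that GGT5 cleaves, had at most 6 counts and both leukotriene receptors CYSLTR1 and CYSLTR2 had 0. The authors' handling of reads shared between similar genes is not given in the sources used here. Low counts of GGT5 may therefore hold reads of its relatives.

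**Figure D4:**
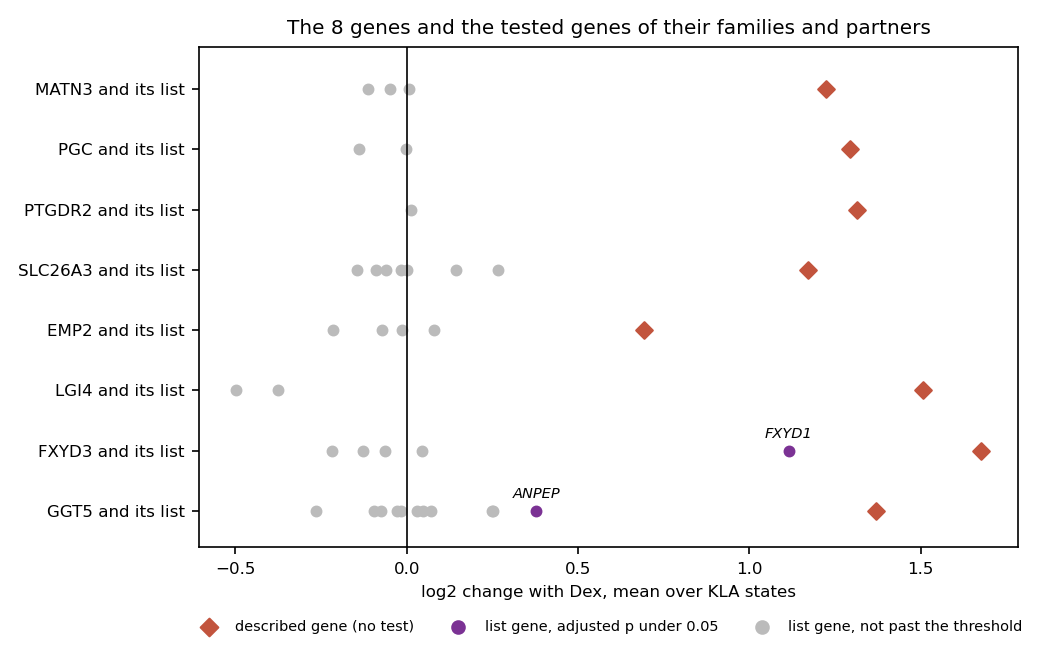
Each row holds 1 of the 8 genes (red diamond, no test) and the tested genes of its family and partner list (circles), placed by the log2 change with Dex averaged over cells with and without KLA. Of the 35 circles, FXYD1 (1.11) and ANPEP (0.38) passed the threshold, and all circles lie left of the diamond of their row. The diamonds were picked for their rise with Dex, so this order says nothing further.

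Other markers of the tissues in which the 8 genes are best known were then examined. Of 61 markers of cartilage, stomach, colon, blood cells of the allergic response, Schwann cells, lung alveoli and vessel walls with fibroblasts, 14 were tested and 0 were called for the mean Dex effect by edgeR's quasi-likelihood test, with a median of −0.049. Stomach markers summed to 0.914 to 1.5 CPM under DexKLA, 0.66 to 1.66 under Dex, 1.03 to 1.68 under KLA and 0.897 to 1.75 under DMSO, and 6 of the 12 (GKN1, GKN2, PGA3, PGA4, CBLIF and LIPF) had 0 counts in every library. Markers of eosinophils, basophils and type 2 helper T cells had 0 counts in every DexKLA and DMSO library and at most 0.44 CPM in sum in any other, with 6 of 8 at 0 throughout (CCR3, GATA3, SIGLEC8, IL5RA, CLC and IL4).

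Cartilage markers summed to 73.6 to 96.8 CPM under DexKLA, 88 to 96.2 under Dex, 76.2 to 83.9 under KLA and 85.8 to 101 under DMSO, most of it SOX9, a transcription factor that liver tumour cells can also express (76.9 CPM on average), with ACAN and HAPLN1 at 0. Colon markers summed to 193 to 242 CPM under DexKLA, 203 to 214 under Dex, 195 to 210.3 under KLA and 234 to 242 under DMSO, most of it VIL1 (211 CPM), with CA1 and SI at 0. Schwann cell markers summed to 201 to 235 CPM under DexKLA, 207 to 265 under Dex, 179 to 277 under KLA and 288 to 331 under DMSO, nearly all of it the receptor ERBB3 (212 CPM), with CDH19 at 0. Lung markers summed to 1.58 to 3.02 CPM under DexKLA, 2.22 to 3.50 under Dex, 2.56 to 3.01 under KLA and 1.75 to 3.77 under DMSO, with AQP5, HOPX and PDPN at 0. Markers of vessel walls and fibroblasts summed to 45.9 to 46.4 CPM under DexKLA, 46.8 to 48.8 under Dex, 47.3 to 56.3 under KLA and 50.8 to 55.0 under DMSO, with COL1A2 at 0. Of these 7 sums, 3 (colon, Schwann cells, and vessel walls with fibroblasts) were lower in every Dex library than in every DMSO library, and none was higher in every one. Of single tested genes, 13.6% had that lower order. The cartilage, colon and Schwann cell sums were also lower in every KLA library than in every DMSO library, an order of 18.3% of tested genes. The sum for vessel walls with fibroblasts was also lower in every DexKLA library than in every KLA library (7.16% of tested genes), and the other 6 overlapped there. Their part in the values of the 8 genes was not tested. Of the 8 liver markers, FGB, a chain of fibrinogen, fell (−0.54 ± 0.08 for the mean Dex effect, adjusted p = 0.000162) and the other 7 did not pass the threshold.

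The genome around the 8 genes was described after FXYD1 was seen to lie beside LGI4. FXYD3, LGI4 and FXYD1 are neighbours on chromosome 19. The counted transcripts of FXYD3 (plus strand) and LGI4 (minus strand) converge with 188 bases between their ends, and the transcript of FXYD1 (plus strand) starts 3764 bases beyond the start of LGI4. In GENCODE 29 the longer gene model of LGI4 (to 35142451) overlaps FXYD1 on the opposite strand. FXYD1 had 47.4, 45.3 and 20.4 CPM under DexKLA, 42.7, 46.2 and 45.1 under Dex, 24.7, 17.9 and 18.5 under KLA, and 18.6, 18.7 and 14.8 under DMSO. All Dex libraries were above all DMSO libraries, whereas DexKLA replicate 3 lay among the KLA libraries. FXYD1 was called in each of 23 alternatives, with a log2 change of 0.99 to 1.28. Within 100 kb of LGI4, HPN (0.08 ± 0.09), HPN-AS1 (0.15 ± 0.13) and GRAMD1A (0.04 ± 0.12) were not called, and FXYD7 and FXYD5, the next genes beyond FXYD1, had at most 2 and 8 counts.

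**Figure D5:**
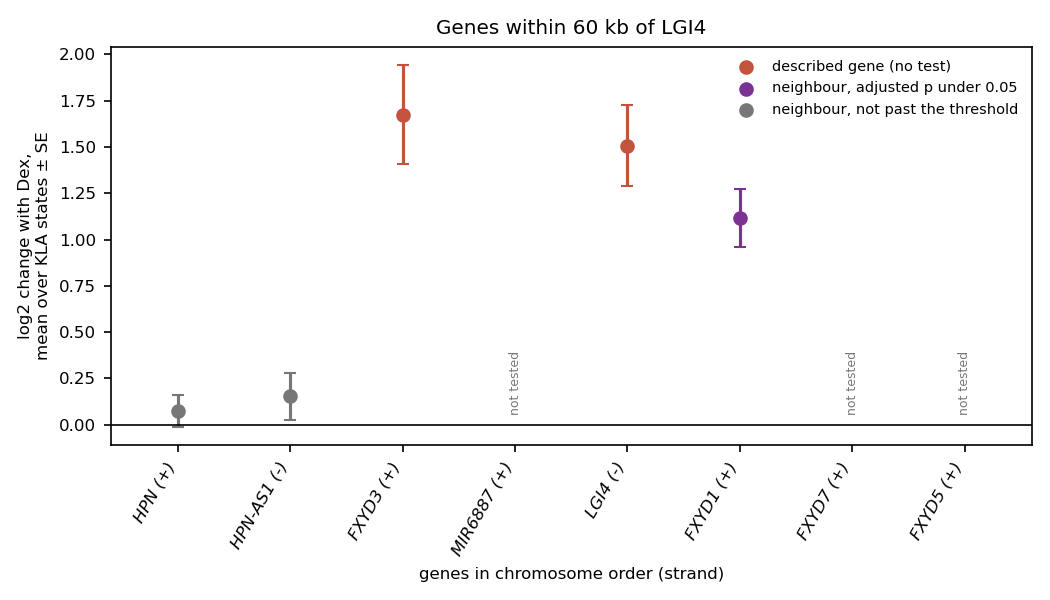
Genes within 60 kb of LGI4 are placed in chromosome order on the x axis (strand in brackets), with the log2 change with Dex averaged over cells with and without KLA and its standard error on the y axis. FXYD3 (1.67), LGI4 (1.51) and FXYD1 (1.11) stand above the 2 other tested genes, HPN (0.08) and HPN-AS1 (0.15), and genes with too few counts are written as not tested.

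Over all 8 genes, 40 other genes had a counted transcript within 100 kb, of which 26 were tested and 3 were called higher for the mean Dex effect (0.873% of all tested genes were) and 0 lower, in the same edgeR quasi-likelihood test. They were FXYD1, SUSD2 near GGT5 and TFEB beside PGC. SUSD2, a membrane protein with a sushi domain, had 26.5, 28.1 and 39.3 CPM under DexKLA, 29.4, 33.7 and 24.6 under Dex, 12.8, 15.8 and 14.1 under KLA, and 21.4, 15.8 and 17 under DMSO, with no overlap between groups with and without Dex. It rose by 0.94 ± 0.12 (adjusted p = 4.73e-05), 30547 bases from GGT5. TFEB, a transcription factor of lysosomal genes, had 11.9, 9.75 and 9.30 CPM under DexKLA, 13.3, 11.9 and 11.4 under Dex, 8.59, 6.91 and 7.82 under KLA, and 8.45, 8.25 and 5.67 under DMSO. It rose by 0.56 ± 0.13 (adjusted p = 0.0249), and its transcript starts 1102 bases past the end of PGC on the same strand. The TFEB call ended in 6 of 23 alternatives, with an adjusted p of up to 0.552, among them the fits without DexKLA replicate 1, Dex replicates 1 or 2, KLA replicate 2 or DMSO replicate 3. Next to the other genes, WDR35 beside MATN3 (−0.05 ± 0.11) and DLD (0.13 ± 0.08) and CBLL1 (0.06 ± 0.12) beside SLC26A3 were not called.

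The genes whose pattern over the 12 libraries was most like the mean of the 8 were found among 12380 other genes whose mean level was at least 1 in log2 CPM. They were IGFBP2, a binding protein of insulin-like growth factors (Pearson's r 0.964), AFP, the alpha-fetoprotein of fetal liver (0.941), HOMER2, a scaffold protein (0.935), DKK4, a Wnt antagonist (0.932), and SLC13A3, a carrier of dicarboxylates (0.931). Taken singly, the gene most like PGC was CRY2, a protein of the circadian clock (0.984), that most like SLC26A3 was TM4SF1 (0.98), and that most like MATN3 was HOMER2 (0.96). For PTGDR2 it was DKK4 (0.949), for EMP2 ACAA2 (0.951), for LGI4 ELL2 (0.944), for FXYD3 AGXT (0.922) and for GGT5 DIPK2A (0.905). The 12 libraries share the group means and differ in depth, so these values describe likeness only. AGXT, an enzyme of hepatocyte peroxisomes, had 34.5 CPM under DexKLA, 41.4 under Dex, 22.9 under KLA and 22.8 under DMSO.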

How the data were processed

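Trimmomatic, BWA 0.7.17, HOMER 4.10 and the build hg38 stand in the submitters' processing notes, without roles. The authors deposited values per RefSeq transcript (70507) in steps of 0.5. These deposited values were treated like expected counts, between 32.6% and 36.4% of them not whole. The counting rule and the strand setting are not given in the sources used here. Counts were rounded. Transcripts without a symbol (406, holding 1.71% to 2.55% of a library) were left out, and each symbol was represented by its transcript with the highest total. The 8 genes, the gene lists and the tests were chosen with earlier results of these data known.

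Genes were filtered with filterByExpr (minimum count 10), scaled by TMM and fitted with edgeR 4.0.16 in R 4.3.3 (quasi-likelihood, 1 mean per group, 12 libraries, 8 residual degrees of freedom). The Benjamini-Hochberg adjustment ran over 13166 genes, with a threshold of 0.05. Standard errors are the log2 change over the root of F, and 95% intervals use 8 degrees of freedom. The fit was tested on simulated data. The genes named besides the 8 were list genes called in a Dex, KLA or interaction test, the closest relatives, the genes most alike over libraries (log2 CPM, prior count 2) and genome neighbours in GENCODE 29. CCDC86, TFEB, SUSD2 and other list genes given with values were chosen after those were seen. Alternatives used DESeq2 1.42.0 and limma 3.58.1, other scalings, filters, transcripts and covariates, and left out each library. Some single genes are not reported here. Replicate numbers were not used to pair the libraries in the main fit.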

Additional observations from a re-analysis of the deposited data

How the results depend on the processing

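The Dex changes of the 8 genes were recomputed under 23 alternatives, 543 values in all, and each stayed above 0. The alternatives reuse the same libraries and linked comparisons, and the genes were picked for this rise, so the signs say nothing further. GGT5 could not be fitted with 50 counts required in 3 libraries or with libraries thinned to 3317740 counts, nor FXYD3 with 50 counts required, so no value is given for them there. LGI4 moved beyond the spread of its replicates when thinned (2.25 for Dex versus DMSO in place of 1.84), and GGT5 without Dex replicate 2 (1.41 in place of 1.96). SLC26A3 was the 1 gene of the 8 called for the mean KLA effect in any alternative, with no filter (1 gene called), when thinned (1) and without DexKLA replicate 3, and leaving out each library gave 0 to 1. With no filter, 1 of the 8 was also called for the interaction, SLC26A3 again, and leaving out each library gave 0. Family and partner genes called for the mean Dex effect numbered 1 with library size alone and 3 in DESeq2's test, in place of 2, and 1 to 3 when each library was left out. For the mean KLA effect, DESeq2's test and no filter each called 1, and leaving out libraries 0 to 2. For the interaction they numbered 2 with DESeq2's test, 4 with no filter and 0 to 2 with libraries left out. Tissue markers, counted here together with the 8 liver markers, called for the mean Dex effect numbered 1 to 2 when each library was left out. In the main fit the number was 1, the liver marker FGB. The cause of these shifts was not tested. Over all genes, the mean KLA effect had 987 calls without DexKLA replicate 3, 663 with no filter and 618 in DESeq2's test, against 0.

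Replicate numbers are shared between groups. The correlation of deviations between same-numbered libraries ran from −0.31 to 0.172 and was over 0.1 in 1 of 18 pairs. Of the 12 libraries, 0 correlated best with a library of their own number. These values cannot tell whether same-numbered libraries were prepared together, which the labels leave unsaid. With the replicate block, 0 of the 8 were called for the mean KLA effect and 0 for the interaction, 2 family and partner genes for the mean Dex effect, and 134 genes over the whole table in place of 270 in Dex versus DMSO. Depth limits LGI4, FXYD3 and GGT5, which had 2 to 12 counts in DMSO libraries.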
